A study of Homo sapiens with 8 samples.

Results

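The ubiquitin-specific protease (USP) genes were taken as the rows of the expression table whose symbol is USP followed by a number and at most 1 letter. The rule found 47 genes among 14526. It leaves out related genes with other names, such as CYLD, PAN2 and USPL1, which are given at the end. Of 52 USP symbols listed for the family, 5 have no row in the table, among them USP26, USP29 and USP50.

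Ubiquitin is a small protein that is joined to other proteins to mark them for the proteasome, for sorting between membranes or for signalling. Deubiquitinases cut it off again, and the USP genes encode the largest family of them, cysteine proteases that share a fold but differ in their partners and substrates. Some act on ubiquitin attached to histones H2A and H2B, others at the proteasome, in DNA repair, on endosomes or on signalling proteins.

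The study asked how sodium benzoate (SB), a food preservative that raises benzoyl-CoA and thereby histone lysine benzoylation, changes expression. Its labels give HepG2, a line derived from a human liver carcinoma, grown in DMEM with serum, with 4 control replicates and 4 replicates kept in 10 mM SB for 24 h. RNA-seq values were RPKM, which are reads divided by the length of the gene and the depth of the library. SB-treated and control cells were compared with limma on log2(RPKM + 1), and a gene was called higher or lower at a Benjamini-Hochberg adjusted p-value below 0.05 over the 14526 genes. Differences below are SB-treated minus control on this log2 scale, on which the added 1 shrinks differences of weakly expressed genes.

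Of 22 hepatocyte markers, 19, among them ALB, AFP, APOA1, TTR and HNF4A, had no row in the table, which holds genes above a low expression limit. The 3 with a row were low, among them TF at 0.192 ± 0.0188 RPKM (SD, n = 4) and CEBPA at 4.73 ± 0.501 RPKM in the controls. The defining markers of the labelled cell type are therefore absent or low, and the cells are called by their treatment below. Whole reads recovered from the RPKM values ranged from 37010896 to 44903216 per library. Control replicate 1 stood apart: the chi-square of its reads per degree of freedom against the other controls was 33.4 to 38.5, against 1.52 to 3.80 for the other pairs within a group. Among the USP genes it held the highest control value for 28 and the lowest for 15. Its distance from the other controls moved with the GC content of the transcripts, with a Pearson r of -0.79 across the 47 genes, which share the same libraries. The part of this in the results was not tested, and values without this library are given where they change a call.

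With SB, 13 of the 47 USP genes rose and 20 fell, together 70.2% of the family. Over all genes 65.6% were called, 33.0% higher and 32.6% lower. For the same 33 members the values of the groups did not overlap, a share of 70.2% where 61.5% of all genes do so. SB-treated values lay above all controls for 13 (31.0% of all genes) and below them for 20 (30.5%). The changes were small. Only USP15 was called with a difference of at least 0.5, where 10.6% of all genes were, and it was at -0.45 without control replicate 1. The median absolute difference was 0.16 in the family and 0.20 over all genes. The members that rose were USP44, USP40, USP31, USP35, USP12, USP53, USP21, USP42, USP20, USP32, USP34, USP49 and USP24. Those that fell were USP15, USP39, USP10, USP16, USP43, USP1, USP14, USP9X, USP18, USP38, USP37, USP33, USP47, USP4, USP46, USP27X, USP3, USP7, USP30 and USP48. The balance between the directions depended on the scaling of the libraries: without the TMM factors, which moves the median log2 ratio of all genes from 0.01 to 0.11, 17 members were called higher and 11 lower. USP3, USP4, USP7, USP27X, USP30, USP33, USP46, USP47 and USP48 then lost their calls, and USP19, USP22, USP45 and USP51 were called higher. No called member changed direction with either scaling that was tried. A correction for GC content and transcript length moved the balance the other way, to 8 higher and 26 lower. Without control replicate 1, 15 were higher and 23 lower. Fewer cells of a kind and less RNA per cell cannot be told apart in these samples.

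**Figure D1:**
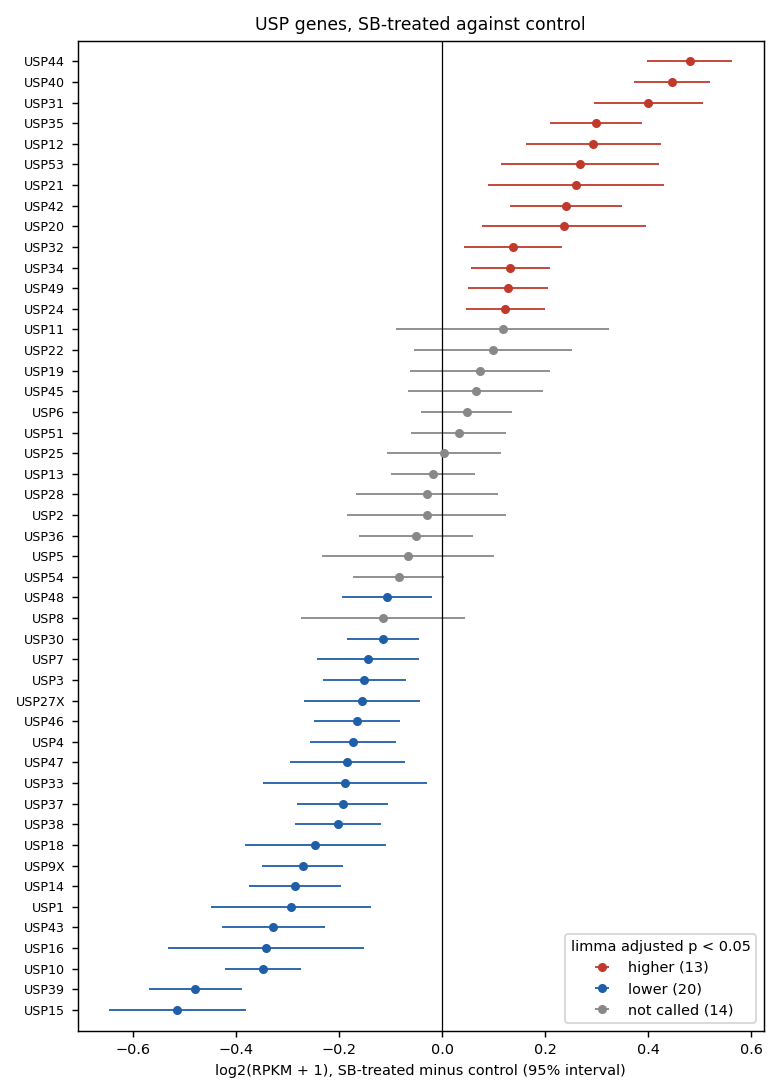
Difference of each of the 47 USP genes between SB-treated and control cells (x axis, log2(RPKM + 1), SB-treated minus control; bars are 95% intervals from limma, n = 4 replicates per group). The 13 genes called higher are in red, the 20 called lower in blue and the 14 not called in grey; without the TMM factors the calls are 17 higher and 11 lower.

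The family spanned a wide range of levels. The mean over the 8 libraries reached from 0.266 RPKM for USP6 to 121 RPKM for USP1, with a median of 11.5 RPKM, and 27 members lay above 10 RPKM. Members that rose reached up to 30.9 RPKM (USP24), and those above this level fell or were not called. USP1, USP22 and USP9X took 29.4% to 30.5% of the summed RPKM of the family in each library. USP6 rested on 79 to 158 reads per library, and each of the other members on at least 246. The summed RPKM of the family was 1061 ± 19.0 (SD, n = 4) in control and 982 ± 9.22 in SB-treated cells, and the groups did not overlap. Without the TMM factors the sums were 1023 ± 13.1 and 1019 ± 7.31 and overlapped, so the summed level gave no direction apart from the scaling. The counted length of the members had a median of 5220 bases, against 3341 bases over all genes.

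**Figure D2:**
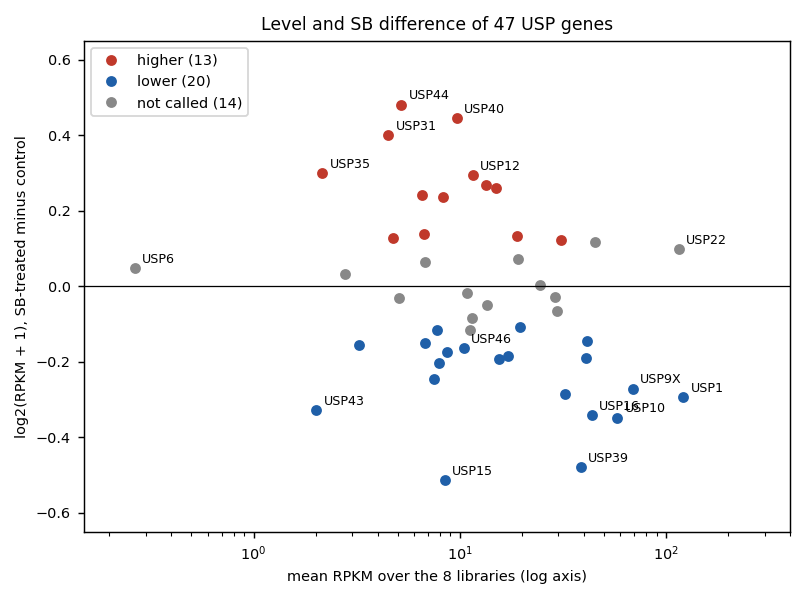
Level of each USP gene (x axis, mean RPKM over the 8 libraries, log axis) against its difference (y axis, log2(RPKM + 1), SB-treated minus control). Members that rose reach up to USP24 at 30.9 RPKM and members that fell up to USP1 at 121 RPKM; USP6 is the lowest at 0.266 RPKM.

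The deubiquitinases of histones H2A and H2B come first, since SB acts on histone acylation. Of the 8 genes, 3 rose (USP44, USP21 and USP49), 3 fell (USP16, USP3 and USP27X) and 2 were not called (USP22 and USP51), 75% called where 65.6% of all genes were. USP44 encodes an H2B deubiquitinase that also takes part in the mitotic checkpoint (hg38, chr12:95516560-95551476, minus strand). It was at 4.22, 4.22, 4.01 and 4.27 RPKM in control replicates 1 to 4 and at 6.23, 5.91, 6.51 and 6.24 RPKM in SB-treated replicates 1 to 4. All SB-treated values lay above all control values, by 49.0% in the means, the largest difference among the members that rose (0.48, standard error 0.037, adjusted p = 4.30e-06). USP49, a related H2B deubiquitinase, was at 4.58, 4.47, 4.31 and 4.69 RPKM in the controls and 5.0, 4.95, 5.0 and 5.15 RPKM with SB. This rise was smaller (0.13, standard error 0.034, adjusted p = 0.00861), and the gene overlaps TOMM6 on the opposite strand, which was at 91.2 RPKM. Whether the counting used strand is not given in the sources used here. After a correction for GC content and length the difference of USP49 was -0.022 and was not called.

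USP16 encodes an H2A deubiquitinase that cells need in mitosis (chr21:29024629-29054488, plus strand). Its levels were 59.4, 44.5, 47.2 and 44.3 RPKM in the controls and 39.8, 37.0, 37.1 and 38.4 RPKM with SB. The groups did not overlap (difference -0.34, standard error 0.085, adjusted p = 0.00552), and control replicate 1 was far above the other controls. Without it the difference was -0.25 and still called (adjusted p = 1.70e-04). USP3, another H2A deubiquitinase, was at 7.40, 7.28, 7.06 and 6.96 RPKM in the controls and 6.66, 6.34, 6.24 and 6.21 RPKM with SB, a fall of 11.3% in the means (difference -0.15, standard error 0.036, adjusted p = 0.00412). USP21, which acts on H2A, went the other way, from 11.2, 14.5, 14.5 and 14.1 RPKM to 15.6, 17.1, 16.2 and 16.7 RPKM. It rose by 0.26 (standard error 0.076, adjusted p = 0.0131), and by 0.18 without control replicate 1, its lowest value. The H2A deubiquitinases thus moved in both directions.

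USP22 is the catalytic subunit of the deubiquitinase module of the SAGA coactivator, in which ATXN7L3, ATXN7 and ENY2 are the other subunits, and USP27X and USP51 can take its place on ATXN7L3 and ENY2. USP22 was among the most abundant members, at 94.6, 118, 114 and 120 RPKM in the controls and 118, 120, 120 and 118 RPKM with SB. The groups overlapped, and the difference of 0.10 had a 95% interval from -0.05 to 0.25 (adjusted p = 0.227). USP27X fell from 3.81, 3.61, 3.24 and 3.22 RPKM to 3.06, 2.81, 3.04 and 3.11 RPKM (difference -0.16, standard error 0.050, adjusted p = 0.0203). The call of USP27X was lost without control replicate 2 (adjusted p = 0.0552), without SB-treated replicate 2 (0.0625), without the TMM factors (0.194) and with the GC content and length correction (0.0649). USP51 was at 3.02, 2.62, 2.69 and 2.63 RPKM and at 2.78, 2.75, 2.88 and 2.87 RPKM, groups that overlapped (difference 0.03, 95% interval from -0.06 to 0.12, adjusted p = 0.525). Without control replicate 1, USP51 was called at 0.067 (adjusted p = 0.0365). The adaptor ATXN7L3, by contrast, rose from 15.9 ± 1.41 to 22 ± 0.720 RPKM (SD, n = 4; difference 0.45, adjusted p = 1.34e-04). ATXN7 rose from 7.73 ± 0.0869 to 8.86 ± 0.214 RPKM (difference 0.17, adjusted p = 9.02e-04), while ENY2 fell from 16.4 ± 1.29 to 14.4 ± 0.205 RPKM (difference -0.18, adjusted p = 0.0112).

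USP1, USP12 and USP46 are activated by binding to WDR48, also named UAF1, and each was called, where 65.6% of all genes were. USP1 removes ubiquitin from FANCD2 and PCNA in DNA repair (chr1:62436297-62451804, plus strand). Its levels were 156, 125, 131 and 124 RPKM in the controls and 112, 106, 107 and 110 RPKM with SB. This most abundant member fell by 18.9% in the means without overlap of the groups (difference -0.29, standard error 0.069, adjusted p = 0.00406), and without control replicate 1 the difference was -0.22. USP12 and USP46 are close relatives that also bind WDR20, and they moved apart. USP12 was at 11.7, 9.50, 10.1 and 9.84 RPKM in the controls and 13.4, 12.6, 12.7 and 12.5 RPKM with SB (difference 0.29, standard error 0.059, adjusted p = 0.00165). USP46 was at 11.6, 11, 10.7 and 11.1 RPKM and then at 10.2, 9.65, 9.82 and 9.56 RPKM (difference -0.16, standard error 0.037, adjusted p = 0.00328). USP46 was thus the higher of the pair in 3 of the 4 controls and the lower in all SB-treated replicates. WDR48 itself fell from 24.3 ± 1.58 to 21.2 ± 0.545 RPKM (difference -0.19, adjusted p = 0.00596), and WDR20 was not called (difference -0.04, adjusted p = 0.457).

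Ubiquitin recycling at and beside the proteasome is served by USP14, USP5 and USP13. Of these USP14 alone was called, 33.3% against 65.6% of all genes. USP14 trims chains on the regulatory particle of the proteasome (chr18:158383-214629, plus strand). It was at 37.8, 34.6, 35.3 and 34.6 RPKM in the controls and 30.1, 28.6, 28.7 and 28.5 RPKM with SB, a fall of 18.5% without overlap of the groups (difference -0.29, standard error 0.040, adjusted p = 1.73e-04). The gene overlaps THOC1 on the opposite strand, which was at 24.1 RPKM. USP5, which takes apart free ubiquitin chains, was at 25.0, 31.9, 31.7 and 32.2 RPKM and at 29.0, 29.5, 28.3 and 27.9 RPKM. Its groups overlapped through control replicate 1 (difference -0.07, 95% interval from -0.23 to 0.10, adjusted p = 0.454), and without that library USP5 was called lower, at -0.15 (adjusted p = 7.56e-04). USP13, its relative, was at 10.6, 11.2, 10.4 and 11.3 RPKM and at 10.9, 10.7, 10.4 and 10.9 RPKM, with a 95% interval of the difference from -0.10 to 0.06. The other deubiquitinases of the proteasome, UCHL5 and PSMD14, fell further than USP14. UCHL5 went from 39.4 ± 6.38 to 22.7 ± 0.882 RPKM (difference -0.76, adjusted p = 7.28e-05). PSMD14, named after its values were seen, went from 77.1 ± 4.82 to 55.2 ± 1.72 RPKM (difference -0.47, adjusted p = 2.25e-05).

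Among the 10 members tied to p53, MDM2 and genome maintenance, 2 rose, 5 fell and 3 were not called, 70% called against 65.6% of all genes. USP10 deubiquitinates p53 and binds the stress granule proteins G3BP1 and G3BP2 (chr16:84699986-84779922, plus strand). It was at 67.4, 65.5, 62.9 and 64.8 RPKM in the controls and at 50.8, 50.9, 50.8 and 51.4 RPKM with SB. Replicates were close in both groups and the gap between them was wide (difference -0.35, standard error 0.033, adjusted p = 1.44e-05). G3BP1 and G3BP2 also fell, with differences of -0.14 (adjusted p = 0.0145) and -0.19 (adjusted p = 0.0176). USP7, which acts on both MDM2 and p53, fell from 43.7 ± 2.58 to 39.4 ± 0.654 RPKM (SD, n = 4; difference -0.14, adjusted p = 0.0157), and its partner GMPS from 108 ± 7.17 to 80.7 ± 1.72 RPKM (difference -0.41, adjusted p = 5.49e-05). USP37, USP47 and USP48 also fell, with differences of -0.19, -0.18 and -0.11. USP48 lost its call without control replicate 3 (adjusted p = 0.0596) and in each fit that left out 1 SB-treated replicate (0.0535 to 0.0838). USP42 and USP24 rose by 0.24 and 0.12, and USP24 was not called after the correction for GC content and length, where its difference was -0.027. For USP11, USP28 and USP45 the 95% intervals ran from -0.09 to 0.32, from -0.17 to 0.11 and from -0.07 to 0.19. USP45 was called higher without control replicate 1, at 0.13 (adjusted p = 0.00118).

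**Figure D3:**
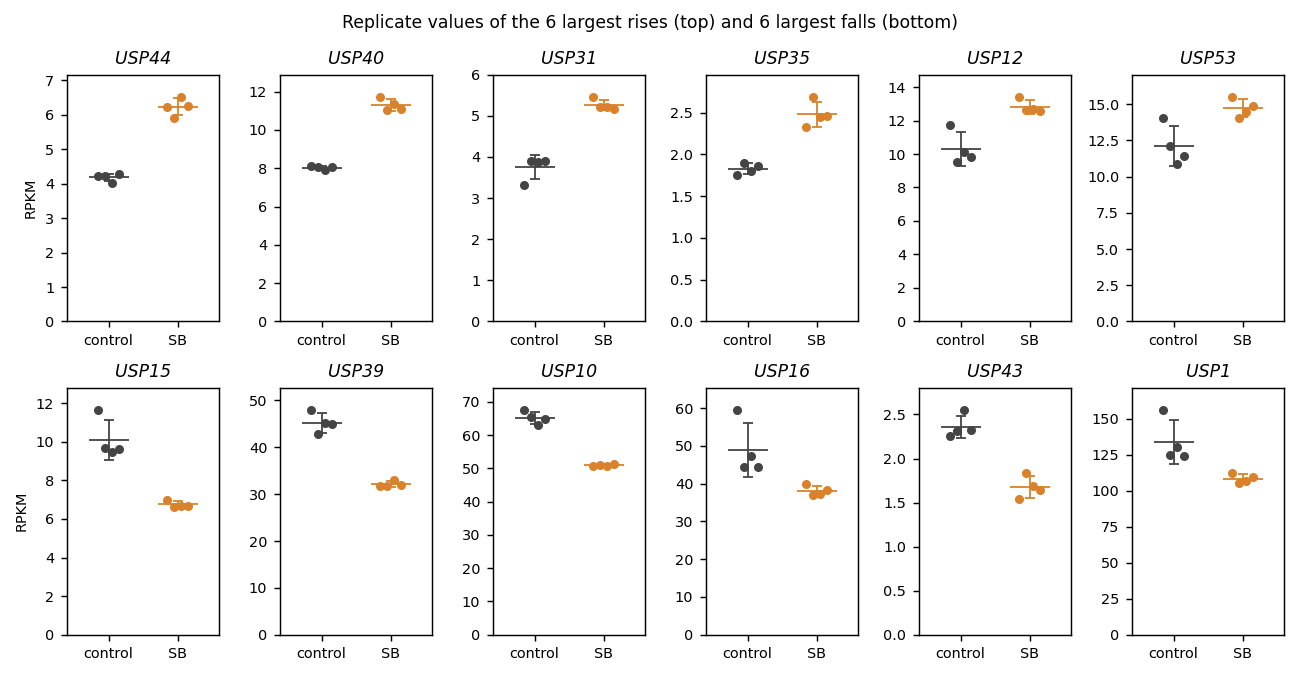
RPKM (y axes, each from 0) of the 6 USP genes with the largest rise (top) and the 6 with the largest fall (bottom) in the 4 control and 4 SB-treated replicates. Points are replicates 1 to 4 from left to right and bars are the mean with SD, and no group overlaps the other. Control replicate 1 is the highest control in USP40, USP12, USP53, USP15, USP39, USP10, USP16 and USP1. It is the lowest control in USP31, USP35 and USP43.

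In signalling, 2 of 7 members rose and 4 fell, 85.7% called against 65.6% of all genes, and USP2 was not called (95% interval from -0.18 to 0.12). USP2 was called lower without control replicate 1 (-0.11, adjusted p = 0.00479) and with the GC content and length correction (-0.13, adjusted p = 0.0169). USP15, a deubiquitinase of TGF-beta receptor and SMAD signalling, had the largest fall of the family. It (chr12:62260338-62417431, plus strand) was at 11.6, 9.70, 9.47 and 9.61 RPKM in the controls and 6.98, 6.63, 6.69 and 6.70 RPKM with SB. The SB-treated mean lay 33.2% below the control mean and the groups did not overlap (difference -0.51, standard error 0.059, adjusted p = 4.96e-05). Without control replicate 1, the highest control, it was -0.45 (adjusted p = 5.50e-07). USP4, its near relative, fell less, from 9.20 ± 0.346 to 8.04 ± 0.210 RPKM (difference -0.17, adjusted p = 0.00236), and SART3, which carries both to the spliceosome, fell from 24.9 ± 0.740 to 19.3 ± 0.334 RPKM (difference -0.35, adjusted p = 1.80e-05). USP9X, a deubiquitinase of SMAD4 and many other proteins, fell from 75.2 ± 2.53 to 62.1 ± 0.689 RPKM (difference -0.27, adjusted p = 1.02e-04). USP18, which removes the ubiquitin-like ISG15 after interferon, fell from 8.23 ± 0.619 to 6.78 ± 0.503 RPKM (difference -0.25, adjusted p = 0.00560). With the GC content and length correction its difference was -0.13 and was not called (adjusted p = 0.0676). Its reads could be shared with the near-identical copy USP41, which has no row, and its value is uncertain for that reason.

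USP31, linked to NF-kappa-B signalling, rose. It (chr16:23061406-23149452, minus strand) was at 3.33, 3.90, 3.87 and 3.91 RPKM in the controls and 5.46, 5.21, 5.2 and 5.17 RPKM with SB (difference 0.40, standard error 0.047, adjusted p = 5.62e-05). Without control replicate 1, its lowest value, the difference was 0.36. USP34, which stabilizes axin in the Wnt pathway, rose from 18.0 ± 0.539 to 19.9 ± 0.275 RPKM (difference 0.13, adjusted p = 0.00662), and was not called after the correction for GC content and length, at -0.019.

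On endosomes, the endoplasmic reticulum, the Golgi and mitochondria, 2 of 8 members rose, 2 fell and 4 were not called, 50% called against 65.6% of all genes. USP20 rose from 7.56 ± 0.881 to 9.04 ± 0.337 RPKM (difference 0.24, adjusted p = 0.0150), and USP33, its relative, fell from 43.9 ± 5.27 to 38.2 ± 0.924 RPKM (difference -0.19, adjusted p = 0.0389). With the GC content and length correction USP20 was at 0.079 and not called (adjusted p = 0.0723). The call of USP33 was lost, at -0.20 to -0.17, in each fit that left out 1 SB-treated replicate. USP20 overlaps C9orf78 on the opposite strand, which was at 26.4 RPKM. USP32, a Golgi enzyme, rose by 0.14 (adjusted p = 0.0167) and USP30, which sits on the outer mitochondrial membrane and opposes mitophagy, fell by 0.12 (adjusted p = 0.00861). USP32 lost its call without SB-treated replicate 4 (adjusted p = 0.0551) and with the GC content and length correction (0.138). USP6, a hominoid gene that arose in part from USP32, was at 0.279, 0.252, 0.252 and 0.196 RPKM and at 0.301, 0.227, 0.275 and 0.344 RPKM. The groups overlapped, and reads that USP6, USP32 and the USP32 pseudogenes share make both values uncertain. USP8 of the endosomal sorting machinery (95% interval from -0.27 to 0.04), USP19 (from -0.06 to 0.21) and USP25 (from -0.11 to 0.11) were not called.

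USP39 belongs to the spliceosome and lacks peptidase activity. The gene (chr2:85602856-85649283, plus strand) was at 47.9, 42.8, 45.1 and 45.0 RPKM in the controls and 31.8, 31.6, 33.0 and 32.0 RPKM with SB. This was the largest fall after USP15, 29.0% in the means with no overlap (difference -0.48, standard error 0.040, adjusted p = 6.88e-06). It overlaps C2orf68 and TMEM150A on the opposite strand, at 11 and 3.42 RPKM. USP36 of the nucleolus was not called (difference -0.05, 95% interval from -0.16 to 0.06, adjusted p = 0.385), and was called lower without control replicate 1 (-0.096, adjusted p = 0.0168). Besides USP39, USP53 and USP54 were grouped here as inactive by annotation, and their activity was not tested. USP53 rose and USP54 was not called (95% interval from -0.17 to 0.00, adjusted p = 0.0819). USP54 was called lower without control replicate 3 (-0.11, adjusted p = 0.0244). USP53, which is found at tight junctions, was at 14.1, 12.1, 10.9 and 11.4 RPKM in the controls and 15.5, 14.1, 14.5 and 14.9 RPKM with SB (difference 0.27, standard error 0.069, adjusted p = 0.00681). Its highest control, replicate 1, lay just under its lowest SB-treated value.

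The 4 remaining members were called, USP40 and USP35 higher and USP43 and USP38 lower, where 65.6% of all genes were called. USP40 (chr2:233475526-233566782, minus strand) was at 8.11, 8.04, 7.91 and 8.07 RPKM in the controls and 11.7, 11, 11.4 and 11.1 RPKM with SB (difference 0.45, standard error 0.033, adjusted p = 3.22e-06). USP35 was at 1.76, 1.90, 1.80 and 1.86 RPKM and at 2.33, 2.69, 2.45 and 2.46 RPKM (difference 0.30, standard error 0.040, adjusted p = 1.30e-04). USP43 was at 2.26, 2.31, 2.55 and 2.32 RPKM and at 1.54, 1.84, 1.69 and 1.64 RPKM (difference -0.33, standard error 0.0445, adjusted p = 1.43e-04). In these 3 genes the replicates were close and the groups were apart. With USP35 and USP43 near 2 RPKM, the pseudocount of 1 lowers their differences: in RPKM the means changed by 35.7% and by -28.9%. USP38 fell from 8.59 ± 0.356 to 7.33 ± 0.15 RPKM (difference -0.20, adjusted p = 9.31e-04).

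Members that are related in sequence were set side by side as 19 pairs. In 5 pairs one gene rose and the other fell, in 3 both moved the same way and were called, and in 11 at least 1 was not called. The opposite pairs were USP31 with USP43, USP35 with USP38, USP12 with USP46, USP20 with USP33 and USP9X with USP24. The opposite calls of the last 2 pairs did not hold throughout: with the GC content and length correction USP24 was at -0.027 and USP20 at 0.079, neither called, and USP33 lost its call in each fit that left out an SB-treated replicate. USP46 lost its call without the TMM factors (-0.069, adjusted p = 0.113). For each pair the difference between its genes was tested by an exact permutation of the log2 ratio, two-sided, with Benjamini-Hochberg adjustment over the 19 pairs. The difference passed in 15 pairs (exact p = 0.0286, the smallest that 4 against 4 allow, adjusted p = 0.0362). The 5 opposite pairs were among them by construction, since the groups of both genes did not overlap, in opposite directions. That they passed adds nothing to their calls. The 19 pairs stand in a table in which 65.6% of all genes were called, 33.0% higher and 32.6% lower, and some pairs share a gene. How often other pairs of genes have opposite calls or pass this test was not computed. The counts are therefore not read as a result about related genes. The widest gap was 0.73 between USP31 and USP43, followed by 0.63 between USP11 and USP15 and 0.50 between USP35 and USP38, and that of USP12 and USP46 was 0.46. Pairs that did not pass were USP7 with USP47 (adjusted p = 0.102), USP25 with USP28 (0.479), USP5 with USP13 (0.633) and USP22 with USP51 (0.914).

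**Figure D4:**
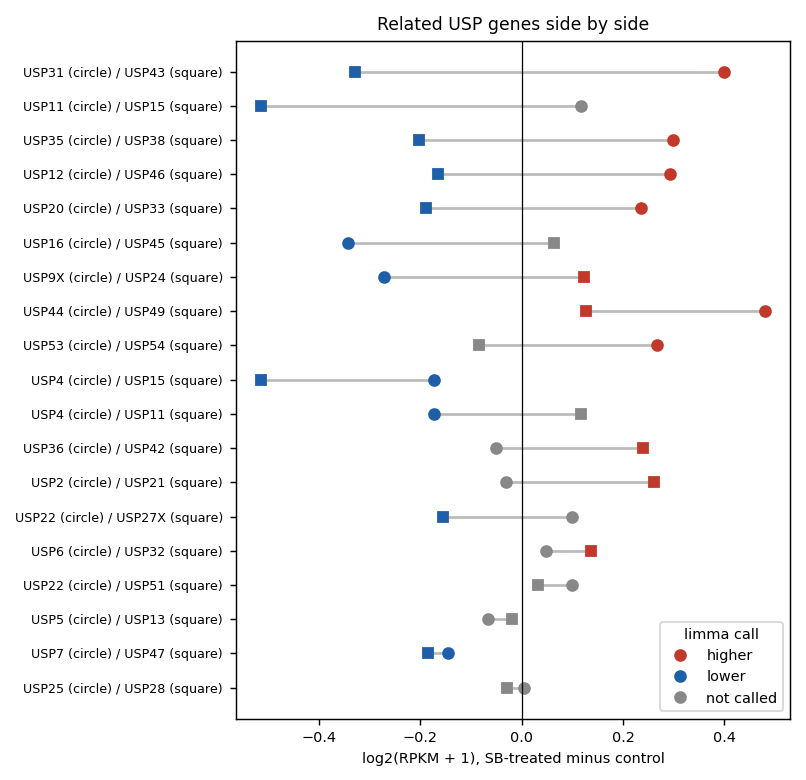
Differences of related USP genes (x axis, log2(RPKM + 1), SB-treated minus control), 1 line per pair with the first gene as a circle and the second as a square, ordered by the gap between them. Colours give the limma call; in the 5 opposite pairs a red and a blue point lie on either side of 0, with the widest gap, 0.73, for USP31 and USP43.

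RefSeq start sites were matched for 37 of the 47 members, and the 250 bases before them were searched on both strands for the CCAAT box (CCAAT), the TATA box (TATAAA), the core of GC boxes (GGGCGG), the core of ETS sites (CCGGAAG) and the NRF1 motif (2 runs of GCGC with any 2 bases between them), none of which contains another. GGGCGG was found for 30 of the 37 members (81.1%), against 67.0% of the windows of 10651 genes of the table and 42.3% of all 27305 windows. It was found for 8 of 9 members that rose, 11 of 15 that fell and 11 of 13 that were not called. CCGGAAG was found for 9 members (24.3%, against 15.1% of the table's genes), and TATAAA for 2 (5.4%, against 5.1%). CCAAT was found for 10 (27.0%, against 34.8%) and the NRF1 motif for 4 (10.8%, against 13.6%). The windows had a median of 27 CpG dinucleotides, against 21 for genes of the table, with 27 for members that rose and 25 for members that fell. Below are the windows (hg38, RefSeq GRCh38.p14) of the largest rise and the 2 largest falls that matched, and of the pair that moved apart, written 5′ to 3′ on the strand of the gene with the searched letters in capitals. A match is only a description. For 9 members several starts were listed, USP39 and USP46 among them, and only the first was used. The window of USP40 holds 1 TATAAA, no GGGCGG and 16 CpG dinucleotides. That TATAAA lies toward the 5′ end of the window, away from the start site. Those of USP15, USP39, USP12 and USP46 hold 1, 3, 6 and 4 copies of GGGCGG, in either orientation.
USP40 (chr2:233566783-233567032, minus strand): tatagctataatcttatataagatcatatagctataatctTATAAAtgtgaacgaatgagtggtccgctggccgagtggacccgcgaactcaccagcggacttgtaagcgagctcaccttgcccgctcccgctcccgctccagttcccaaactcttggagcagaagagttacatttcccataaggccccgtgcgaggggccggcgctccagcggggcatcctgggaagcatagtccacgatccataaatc
USP15 (chr12:62260154-62260403, plus strand): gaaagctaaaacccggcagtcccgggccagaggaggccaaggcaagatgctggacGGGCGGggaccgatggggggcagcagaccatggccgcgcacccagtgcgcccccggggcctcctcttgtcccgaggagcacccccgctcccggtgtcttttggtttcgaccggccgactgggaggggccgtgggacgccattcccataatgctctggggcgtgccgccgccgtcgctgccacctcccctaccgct
USP39 (chr2:85602611-85602860, plus strand): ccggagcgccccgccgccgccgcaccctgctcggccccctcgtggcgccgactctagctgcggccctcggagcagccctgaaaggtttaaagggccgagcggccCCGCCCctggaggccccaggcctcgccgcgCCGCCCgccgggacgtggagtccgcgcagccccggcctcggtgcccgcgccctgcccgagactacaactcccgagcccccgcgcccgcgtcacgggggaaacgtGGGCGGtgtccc
USP12 (chr13:27171812-27172061, minus strand): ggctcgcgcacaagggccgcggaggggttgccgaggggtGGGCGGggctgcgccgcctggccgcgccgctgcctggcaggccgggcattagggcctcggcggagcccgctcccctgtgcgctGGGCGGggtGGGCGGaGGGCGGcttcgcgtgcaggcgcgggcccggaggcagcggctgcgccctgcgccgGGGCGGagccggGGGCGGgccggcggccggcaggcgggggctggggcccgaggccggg
USP46 (chr4:52659302-52659551, minus strand): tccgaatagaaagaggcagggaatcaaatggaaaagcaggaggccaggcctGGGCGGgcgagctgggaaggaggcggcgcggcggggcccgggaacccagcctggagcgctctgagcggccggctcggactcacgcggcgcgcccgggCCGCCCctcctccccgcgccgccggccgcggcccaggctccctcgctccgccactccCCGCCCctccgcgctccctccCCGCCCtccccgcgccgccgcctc

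For the rest of the deubiquitinases, 43 symbols were listed outside the rule, older and newer names included, and 35 had a row. Of these, 12 were higher and 13 lower, 71.4% called, close to the 70.2% of the USP genes and the 65.6% of all genes. Over all genes 33.0% were higher and 32.6% lower, and the counts of the small families below stand beside these shares. Without the TMM factors 18 of the 35 were higher and 11 lower. The median absolute difference of these 35 genes was 0.32, against 0.16 in the USP genes and 0.20 over all genes. Of the 35, 4 were called with a difference of at least 0.5, where 10.6% of all genes were. In the related genes with a USP fold, PAN2 (USP52), which lacks peptidase activity and trims poly(A) tails with PAN3, rose from 10.6 ± 0.589 to 17.9 ± 0.149 RPKM (difference 0.71, adjusted p = 9.49e-07). In the OTU family 8 of 14 rose and 3 fell, with the largest difference for OTUD1, from 4.93 ± 0.216 to 11.5 ± 0.254 RPKM (difference 1.07, adjusted p = 9.06e-08). In the JAMM family of metalloproteases none rose and 5 of 7 fell, STAMBPL1 by the most, from 6.25 ± 0.544 to 4.14 ± 0.284 RPKM (difference -0.50, adjusted p = 6.49e-05). SB-treated values lay below all controls for 4 of the 7, all among the 5 called lower, where 30.5% of all genes do so. Of the UCH family 3 of 4 fell, UCHL5 the furthest, and BAP1, an H2A deubiquitinase named after its values were seen, rose from 35.5 ± 3.07 to 47.5 ± 1.03 RPKM (difference 0.41, adjusted p = 2.01e-04). JOSD1 rose, alone among 3 Josephin genes (difference 0.41, adjusted p = 1.23e-05). FAM188A (MINDY3) had the largest of 2 falls among 4 MINDY and ZUP1 genes (difference -0.37, adjusted p = 8.40e-05).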

How the data were processed

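RNA was sequenced in 4 control and 4 SB-treated replicates. The authors prepared stranded total RNA libraries, mapped single reads to hg38 with TopHat2 2.1.0, counted them per gene with featureCounts 1.5.0, kept genes above a low CPM limit, and scaled libraries by TMM in edgeR 3.16.5. The authors deposited RPKM per gene and replicate. Their deposited log2 fold changes, p-values and FDR were not used, and 0 columns of per-sample values were left unused. The authors' mean log2 CPM set the scale on which whole reads were recovered, for 100% of genes within 0.02 reads; library sizes without TMM factors and voom used these reads.

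Groups were compared with limma 3.58.1 in R 4.3.3 (lmFit, eBayes) on log2(RPKM + 1), with adjustment over 14526 genes. The fit was also run on simulated data with few changed genes and no outlying library. That setting is unlike these data, so the run does not bear on the calls given here. Positions are from GENCODE v44. Other values were computed with Python 3.11.15. Some genes are not reported here. Members and lists were chosen with earlier results of these data known. Values are given in every sample for the 6 largest rises and falls, the histone, WDR48 and proteasome members and the members of highest and lowest level; from the other lists, the gene with the largest difference is named. Alternatives were a pseudocount of 0.1, a mean of at least 1 RPKM, no TMM factors, median-of-ratios scaling, voom, a replicate block, and fits that omit 1 sample each. A loess correction for GC content and length was added after seeing the data (a GC value was found for 91.5% of genes and all 47 members).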

Additional observations from a re-analysis of the deposited data

Results flagged for a closer look

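For the 23 members given in every sample, the gap between the farthest replicate and its nearest neighbour was compared with the range of its group of 4. Of 46 groups, 7 lay above Dixon's 95% critical value, where chance gives about 2.3. Control replicate 1 was the far value in 4 of them: it was lowest for USP31 (0.948 of the range), USP5 (0.934) and USP21 (0.880), and highest for USP15 (0.884). SB-treated replicate 1 was the highest of its group for USP14 (0.887), USP12 (0.865) and USP31 (0.860). Without control replicate 1, USP31, USP21 and USP15 kept their calls and USP5 was called lower (difference -0.15, adjusted p = 7.56e-04, limma).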

How the results depend on the processing

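Of the 33 called members, 18 kept their call and direction under all 15 alternatives, 12 lost the call under at least 1 and 3 reversed. The 18 were USP44, USP40, USP31, USP35, USP12, USP53, USP21 and USP42, all higher, and USP15, USP39, USP10, USP16, USP43, USP1, USP14, USP9X, USP38 and USP37, all lower. Without TMM factors 11 members were lower in place of 20, and the uncalled USP13, USP2, USP28, USP36, USP5 and USP54 turned to 0.078, 0.057, 0.072, 0.047, 0.036 and 0.012, by the shift of all genes that this scaling makes. With the added correction for GC content and length 8 members were higher in place of 13 and 26 lower in place of 20. USP18, USP20, USP27X and USP32 lost their calls, USP2, USP5, USP8, USP13, USP36 and USP54 were called lower, USP24, USP34 and USP49 reversed to -0.027, -0.019 and -0.022 (none called), and USP22, USP19 and USP6 to -0.014, -0.089 and -0.10, the last 2 called lower (adjusted p = 0.0342 and 0.0353). The cause was not tested. USP25, with a difference of 0.0038, turned to -0.00017 with median-of-ratios scaling and ran from -0.022 to 0.050 when 1 sample was left out. USP28 was at 0.016 without control replicate 1. A difference of at least 0.5 was met by 2 members, not 1, with the pseudocount of 0.1, voom, no TMM factors or the GC content and length correction. Leaving out 1 sample gave 12 to 15 members higher, 17 to 23 lower and 0 to 2 past 0.5 (0 without control replicate 1), and 12 to 13 of the other deubiquitinase genes higher and 13 to 14 lower. Without the TMM factors 18 of the other deubiquitinase genes were higher and 11 lower. With the GC content and length correction 11 were higher and 11 lower, in a fit without the genes that had no GC value. With the replicate block 13 members were higher and 20 lower, and no member changed its call. Of the same-numbered pairs, 3 deviated together with correlations from 0.17 to 0.38 and the fourth was at -0.16, and 2 of the 4 SB-treated replicates correlated best with the control of their own number. The labels name nothing that the numbers share, so the fit without the block was kept, and some shared handling cannot be told from these values. Depth limits USP6, with 79 reads in the library where it had the fewest.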

Other observations

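The genes that supply ubiquitin, and the E1 enzymes that activate it, were listed beside the USP genes. Of 6 genes, none rose, 3 fell and 3 were not called, 50% called against 65.6% of all genes. UBA1, the main E1 enzyme, had the largest difference, from 233 ± 35.1 to 179 ± 2.32 RPKM (SD, n = 4; difference -0.37, limma adjusted p = 0.00827), although control replicate 1, at 181 RPKM, lay within the SB-treated range of 176 to 182 RPKM. RPS27A, which encodes ubiquitin fused to a ribosomal protein, fell from 448 ± 23.5 to 363 ± 5.38 RPKM (difference -0.30, adjusted p = 1.70e-04). RPS27A is named after its values were seen.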
